A study of Xenopus laevis with 6 samples.

Results

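The genes described here encode the proteins of the mitochondrial ribosome and of the TIM and TOM complexes, which import proteins into mitochondria. They were measured in the brain of *Xenopus laevis* tadpoles after an injection of leptin. A gene was included where its symbol in the array's annotation starts with *mrpl* or *mrps* (large and small subunit of the mitochondrial ribosome) or with *timm* or *tomm* (translocases of the inner and outer membrane). *X. laevis* carries related L and S copies of many genes, each counted as a gene of its own. This gave 75 genes of the 11303 with a name of their own on the array, namely 32 *mrpl*, 20 *mrps*, 18 *timm* and 5 *tomm* genes. Where a gene had several probe sets, the one with the highest mean stands for it.

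Tadpoles at NF stage 54 were injected i.c.v. with rxLeptin, a recombinant form of the frog's own leptin, at 20 ng/g body weight, or with 0.6% saline as the control, and the brains were taken 2 h later. The comparison asks which transcripts respond to leptin within this short time. RNA of the dissected preoptic area/hypothalamus, which by the labels included the pituitary, came from pools of 3 brains, and 3 pools per treatment were each measured on 1 Affymetrix GeneChip for *X. laevis*. The authors' values are log2 signals from Robust Multichip Average (RMA), so a log2 difference of 1 is a doubling of signal, and signals of different probe sets were not set against each other.

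Mitochondria hold a small genome of their own, and their ribosomes make only a few proteins, all of them in vertebrates being subunits of the respiratory chain and the ATP synthase. The proteins of these ribosomes, like nearly all other mitochondrial proteins, are encoded in the nucleus, made in the cytosol and imported. The TOM complex forms the entry gate in the outer membrane, small Tim chaperones guide hydrophobic proteins through the space between the membranes, the TIM23 complex draws proteins with a presequence into the matrix, and the TIM22 complex inserts carrier proteins into the inner membrane. The brain depends on oxidative phosphorylation, and so on both machineries.

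Hormone genes of both tissues were present, with mean log2 signals of 13.6 for *pomc.L* and 13.4 for *gh1.S* of the pituitary and of 9.86 for *trh.S* and 9.55 for *pmch.L* of the hypothalamus. The saline arrays were less alike than the rxLeptin arrays. Across tested probe sets saline array 1 correlated with saline array 3 at r = 0.973, and saline array 3 with rxLeptin array 2 at r = 0.993. The 3′ signal of the *actin* control exceeded its middle signal by 2.83, 1.61 and 0.77 on saline arrays 1 to 3 and by 0.60 to 0.67 on the rxLeptin arrays, a difference that grows where RNA is fragmented. Among marker lists of 8 cell types or tissues, the summed signal of 18 neuron genes lay at 16.33 to 16.55 on the saline arrays and 16.57 to 16.63 on the rxLeptin arrays (log2), that of 18 muscle genes at 11.32 to 11.46 and 11.21 to 11.29, and that of 14 hypothalamic genes at 14.04 to 14.23 and 13.95 to 14.00, with no overlap between treatments in these lists. Of their tested genes, 1 of 10 neuron genes rose, 4 of 12 muscle genes fell and 1 of 3 hypothalamic genes fell (limma). Over all tested genes 12.2% rose and 10.4% fell. The treatments did not overlap in 8 of the 18 neuron genes, beside 27.7% over all genes. Of these 8, *gad1.1.L* and *snap25.S* (named after their values were seen) were lower after rxLeptin and the others higher. No marker can read 0 in RMA values. The summed signals of the other 5 lists overlapped between treatments. Among them, the 12 pituitary genes had the lowest median difference of group means of the 8 lists, -0.31, and 2 of 8 tested fell without overlap, *cga.S* by 0.60 and *prl.1.S* by 0.72. The part of RNA quality and of tissue composition in the results below was not tested. A fit with the *actin* difference as a covariate was run. That difference was larger on every saline array than on any rxLeptin array, so the fit cannot fully separate it from the treatment. It varied most among the saline arrays themselves, from 0.77 to 2.83. For the *gapdh* and *ef1a* controls (3′ minus 5′ signal), saline array 3 lay within the rxLeptin range. Its values were 1.02 beside 0.93 to 1.11 in *gapdh* and 3.05 beside 2.83 to 3.24 in *ef1a*. Saline arrays 1 and 2 lay above every rxLeptin array in both controls, at 2.71 and 1.18 in *gapdh* and at 4.47 and 3.72 in *ef1a*. In pooled tissue, fewer cells of a type cannot be told apart from less RNA per cell.

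Most genes of the mitochondrial ribosome and most *timm* genes had lower signals after rxLeptin, but the differences were small. Most of the 5 *tomm* genes had higher means. The mean of the rxLeptin arrays was below that of the saline arrays for 49 of the 75 genes and above it for 26, with a median difference of -0.11 on the log2 scale. Over all 11303 genes, 56.5% had a lower mean after rxLeptin and the median difference was -0.033. By machinery, the mean was lower for 36 of 52 ribosome genes (69.2%, median difference -0.14). It was lower in 21 of 32 *mrpl* genes (65.6%, median difference -0.12) and in 15 of 20 *mrps* genes (75%, median difference -0.15). For *timm* and *tomm* genes it was lower in 13 of 23 (56.5%, median difference -0.034). Taken apart, it was lower in 12 of 18 *timm* genes (66.7%, median difference -0.12) and in 1 of 5 *tomm* genes (20%, median difference 0.067). For 25 of the 75 genes (33.3%) every rxLeptin array lay below every saline array, and for 1 gene (1.33%) every rxLeptin array lay above. Over all genes these shares were 16.6% and 11.1% (27.7% in either direction). In the *timm* and *tomm* genes, 7 of 23 (30.4%) lay below in this way, all of them *timm* genes, and 0 lay above. An exact test of 3 arrays against 3 allows no p under 0.1, so single genes were tested with limma, which shares its estimate of the spread across probe sets.

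Of the 75 genes, 46 varied enough across the 6 arrays to pass a filter on the interquartile range and were tested. At an adjusted p under 0.05 from limma with array weights, 12 of them fell and 3 rose, and 31 did not pass. These are 26.1% and 6.52% of the tested members, beside 10.4% falls and 12.2% rises over all tested genes (22.6% called in either direction). By group, 5 of 18 tested *mrpl* genes fell and 1 rose, 4 of 13 *mrps* genes fell and none rose (8 of the 13 had an unadjusted p under 0.05), 3 of 12 *timm* genes fell and 2 rose, and none of 3 *tomm* genes passed (none of them at an unadjusted p under 0.05 either). Over all tested probe sets 43.3% had an unadjusted p under 0.05 in this limma fit. The tested members had a median log2 fold change of -0.16, and all tested genes one of -0.046. None of the 15 calls passed in limma without array weights (2 rises and 16 falls at an unadjusted p under 0.05), though the unweighted changes of the 12 falls still lay between -0.75 and -0.36 and those of the 3 rises between 0.38 and 0.65. With weights kept, none passed without saline array 1 (0 and 5 at an unadjusted p under 0.05) or without saline array 2 (0 and 6). No probe set of the whole array passed in these 3 fits either (4262, 1740 and 1867 of 16269 had an unadjusted p under 0.05).

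**Figure D1:**
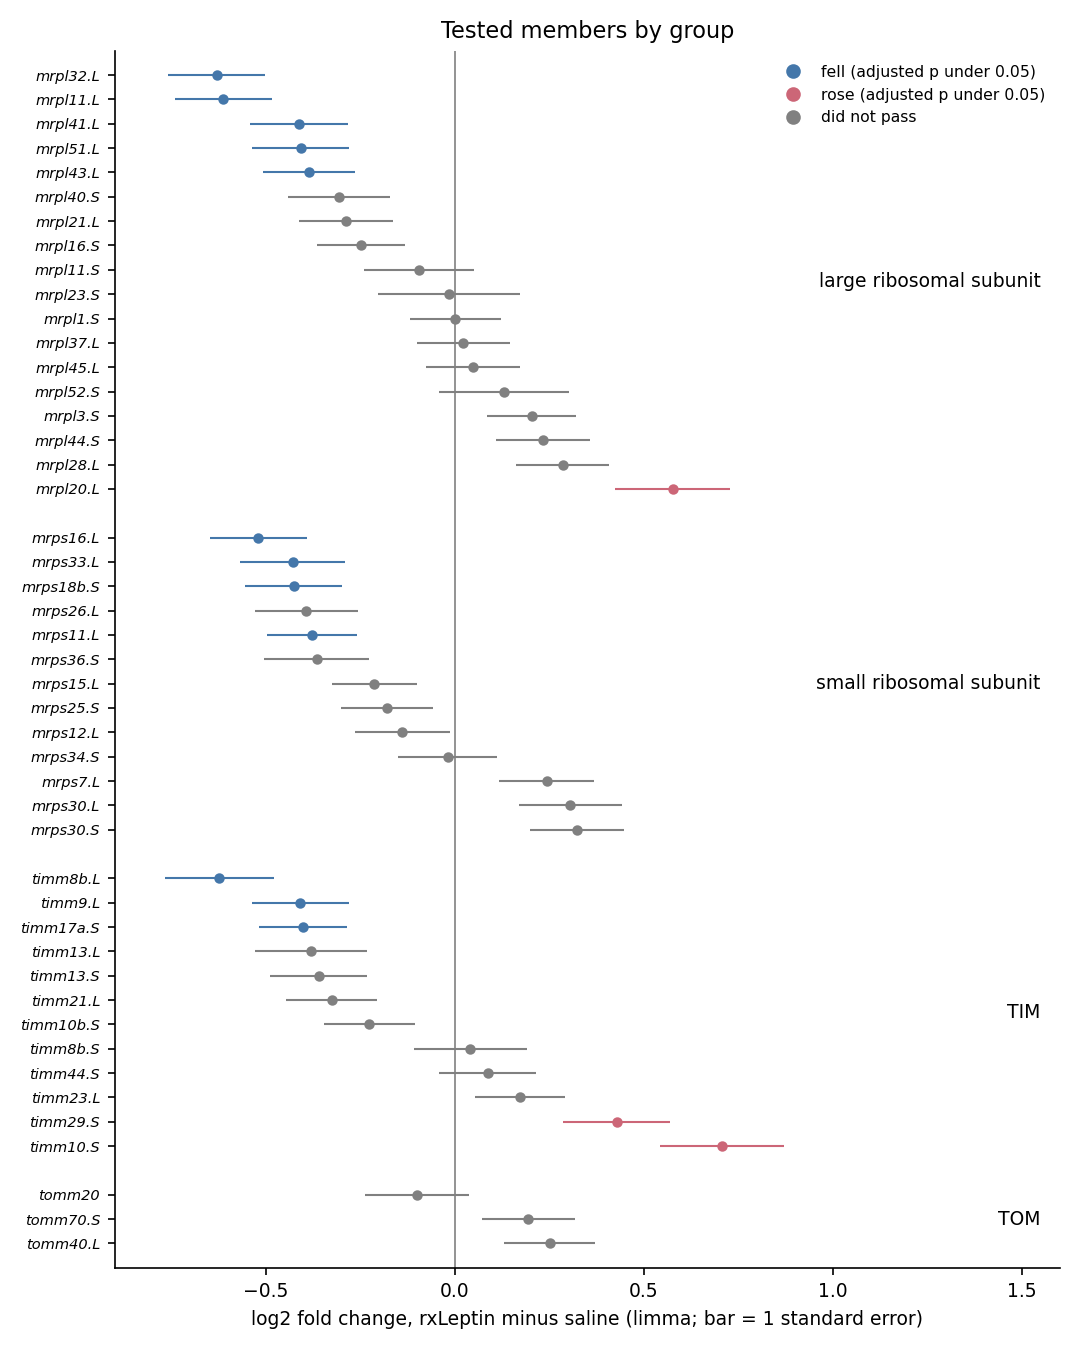
Log2 fold change (rxLeptin minus saline) of the 46 tested genes, grouped by ribosomal subunit and translocase, with bars of 1 standard error from limma. The 12 falls lie between -0.63 and -0.38 and the 3 rises between 0.43 and 0.71, and no *tomm* gene passed.

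In the large subunit, the deepest fall was that of *mrpl32.L*, which encodes a protein processed by the m-AAA protease in yeast and mouse before it joins the ribosome. Its signals were 8.52, 8.02 and 8.14 on saline arrays 1 to 3 and 7.39, 7.48 and 7.55 on rxLeptin arrays 1 to 3. All saline arrays lay above all rxLeptin arrays, and the fitted change was -0.63 (standard error 0.13, adjusted p = 0.00688 from limma), a signal 0.646 times that of saline. *mrpl11.L*, whose protein sits at the base of the stalk where translation factors bind, had signals of 10.41, 10.17 and 10.20 after saline and 9.40, 9.66 and 9.72 after rxLeptin. It fell by 0.61 (standard error 0.13, adjusted p = 0.00778 from limma), again with a clear gap between the treatments.

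The other falls of the large subunit were smaller. *mrpl41.L* had signals of 9.92, 9.39 and 9.29 after saline and of 9.04, 9.03 and 9.02 after rxLeptin, so the rxLeptin arrays were nearly equal while saline array 1 stood highest (log2 fold change -0.41, adjusted p = 0.0376 from limma). *mrpl51.L* fell by 0.41 and *mrpl43.L* by 0.39, both with saline array 1 highest and no overlap. *mrpl20.L* was the only gene of the ribosome called as a rise, with signals of 10.23, 10.58 and 11.19 after saline and 10.99, 11.25 and 11.27 after rxLeptin. Here saline array 3 was as high as the rxLeptin arrays, and the fitted change of 0.58 (adjusted p = 0.0196 from limma) was 0.30 without saline array 1. In *mrpl12.L*, whose mammalian protein also binds the mitochondrial RNA polymerase, the signals were 9.88, 9.77 and 9.79 after saline and 9.50, 9.67 and 9.89 after rxLeptin. They overlapped, and the gene was too even to be tested. In 10 of the 32 *mrpl* genes (31.25%) all rxLeptin arrays lay below all saline arrays, and in none did all lie above. Over all genes these shares were 16.6% and 11.1%.

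In the small subunit, *mrps16.L*, a counterpart of a bacterial ribosomal protein, had signals of 11.33, 10.96 and 10.78 after saline and 10.34, 10.52 and 10.52 after rxLeptin. Its change of -0.52 (standard error 0.13, adjusted p = 0.015 from limma) leaves 0.697 times the saline signal, with every saline array above every rxLeptin array. *mrps11.L* was the fall with the least spread among the saline arrays, at 9.49, 9.54 and 9.46 after saline and 9.01, 9.21 and 9.17 after rxLeptin (log2 fold change -0.38, adjusted p = 0.0392 from limma). It was also the only fall in which saline array 1 was not the highest array. *mrps18b.S* fell by 0.43 and *mrps33.L* by 0.43, both without overlap.

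Other small subunit genes did not pass. *mrps26.L* came closest, at a log2 fold change of -0.39 (adjusted p = 0.0517 from limma). *mrps36.S*, whose mammalian protein is now placed in the 2-oxoglutarate dehydrogenase complex and not in the ribosome, changed by -0.37 without passing. For *mrps12.L*, whose protein lies at the decoding site, the change was -0.14 with an adjusted p = 0.396 from limma. *mrps7.L* was the 1 gene of the 75 with all rxLeptin arrays above all saline arrays, at 7.90, 7.82 and 7.96 after saline and 8.23, 7.99 and 8.19 after rxLeptin, and it did not pass either (log2 fold change 0.24). *mrps26.L*, *mrps36.S* and *mrps7.L* were named after their values were seen.

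**Figure D2:**
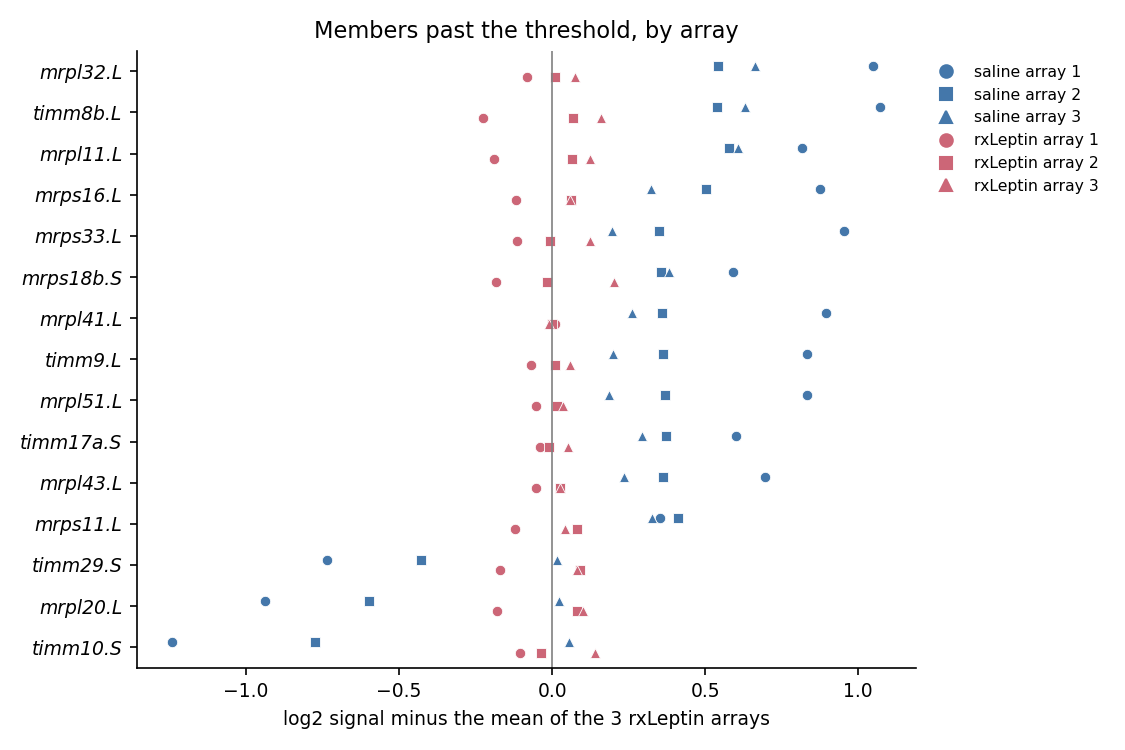
Signal of each of the 15 members past the threshold on each of the 6 arrays, as the log2 difference from the mean of the 3 rxLeptin arrays. In the 12 falls all saline arrays lie to the right of all rxLeptin arrays, whereas in the 3 rises saline array 3 lies within the rxLeptin range.

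The falls and the rises differed in how the arrays lay. In all 12 falls the treatments did not overlap, as in 458 of the 557 falls among all genes. Saline array 1 was the highest array in 11 of the 12, and rxLeptin array 1 was the lowest in 11. Without saline array 1 the fitted changes of the 12 still lay between -0.61 and -0.28, and without saline array 3 they lay between -0.82 and -0.37, with *mrpl41.L* at -0.62 and *mrps33.L* at -0.68 in that fit. In all 3 rises the treatments overlapped, whereas they did not in 395 of the 655 rises among all genes. In these 3 saline array 1 was the lowest array, and without it the changes shrank to 0.22 to 0.33. When the *actin* difference entered the fit as a covariate, no member passed (0 rises and 3 falls at an unadjusted p under 0.05 in limma). No probe set of the whole array passed in that fit either (693 of 16269, or 4.26%, had an unadjusted p under 0.05). The changes of the 12 falls lay between -0.56 and -0.11 there. Those of the 3 rises lay near 0, at -0.0021 in *mrpl20.L*, -0.056 in *timm10.S* and -0.011 in *timm29.S*.

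Among translocase genes, the small Tim chaperones showed both directions. *timm8b.L*, whose protein works in a complex with Timm13, had signals of 9.99, 9.45 and 9.54 after saline and 8.69, 8.98 and 9.07 after rxLeptin. It fell by 0.62 (standard error 0.14, adjusted p = 0.0118 from limma), to 0.649 times the saline signal, with no overlap. *timm9.L*, whose protein pairs with Timm10, had signals of 10.61, 10.14 and 9.98 after saline and 9.71, 9.79 and 9.84 after rxLeptin (log2 fold change -0.41, adjusted p = 0.038 from limma). The 2 copies of *timm13* had lower signals on every rxLeptin array than on any saline array, and neither passed, with log2 fold changes of -0.38 in *timm13.L* (adjusted p = 0.0738 from limma) and -0.36 in *timm13.S* (adjusted p = 0.0568 from limma).

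*timm10.S* stood on the other side. Its signals were 9.13, 9.60 and 10.43 after saline and 10.27, 10.34 and 10.51 after rxLeptin, so saline array 3 lay with the rxLeptin arrays and only saline arrays 1 and 2 lay below. The fitted rise was 0.71 (standard error 0.16, adjusted p = 0.0116 from limma), the largest of all members. It was 0.33 without saline array 1. Of the 8 small Tim genes on the array, 7 were tested, with 2 falls, 1 rise and 4 that did not pass. Over all tested genes 10.4% fell and 12.2% rose.

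The TIM23 complex, which takes up proteins with a presequence, had 7 measured genes. *timm17a.S*, a subunit of its channel, had signals of 10.86, 10.63 and 10.55 after saline and 10.22, 10.25 and 10.31 after rxLeptin, and fell by 0.40 (standard error 0.12, adjusted p = 0.0275 from limma) with a narrow spread in both treatments. Its channel partner *timm23.L* had signals of 10.65, 10.70 and 10.98 after saline and 10.90, 10.86 and 11.07 after rxLeptin, which overlap (log2 fold change 0.17, adjusted p = 0.273 from limma). Further probe sets of *timm23.L* had a difference of group means of -0.014 (not tested) and a log2 fold change of -0.17 that did not pass. In *timm44.S*, which ties the import motor to the channel, the change was 0.087 (adjusted p = 0.607 from limma). The presequence receptor *timm50.L* was too even to be tested, at 10.24, 10.05 and 9.79 after saline, with all rxLeptin arrays inside that range. *timm17b.S*, with a difference of group means of -0.26, and *timm17a.L*, with one of -0.11, were not tested either. The remaining TIM23 gene, *timm21.L*, was lower on every rxLeptin array than on any saline array in its representative. It did not pass (log2 fold change -0.33, adjusted p = 0.064 from limma) and was named after its value was seen. Its other probe sets had log2 fold changes of -0.33 without overlap and -0.096 with overlap, neither of which passed. A further one overlapped and was not tested (difference of group means -0.18). With *timm17a.S* and *timm17a.L*, 3 of the 7 genes were lower without overlap in their representatives, beside 16.6% over all genes. In *timm17a.L* the lowest saline array, at 11.754, barely exceeded the highest rxLeptin array, at 11.752.

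Of the TIM22 complex, which inserts carrier proteins, *timm29.S* had signals of 8.19, 8.50 and 8.94 after saline and 8.76, 9.02 and 9.01 after rxLeptin. It rose by 0.43 (adjusted p = 0.0442 from limma), and saline array 3 again lay within the rxLeptin range. *timm29* encodes a subunit of this complex in human cells. The other copy, *timm29.L* (named after its value was seen), overlapped and was not tested, with a difference of group means of 0.058. *timmdc1.L* carries the name start of this group, but its human protein serves the assembly of respiratory complex I. It was not tested and had a difference of group means of -0.030 (named after its value was seen).

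At the outer membrane no gene passed, and in all 5 *tomm* genes the treatments overlapped. Over all genes, 22.6% of those tested passed, and the treatments did not overlap in 27.7%. The channel gene *tomm40.L* had signals of 9.10, 9.30 and 9.48 after saline and 9.63, 9.48 and 9.64 after rxLeptin, where only the lowest rxLeptin array and the highest saline array met (log2 fold change 0.25, standard error 0.12, adjusted p = 0.13 from limma). Its S copy was even across all arrays, between 10.47 and 10.62. The receptor genes also showed little change. *tomm20* had signals of 10.85, 11.35 and 11.52 after saline and 11.06, 11.27 and 11.29 after rxLeptin (log2 fold change -0.10, adjusted p = 0.577 from limma), and *tomm70.S* a log2 fold change of 0.19 (adjusted p = 0.229 from limma). *tomm22.L* was not tested, at 10.92 to 11.22. Whether *tomm* genes differ from *timm* genes in their response was not tested.

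**Figure D3:**
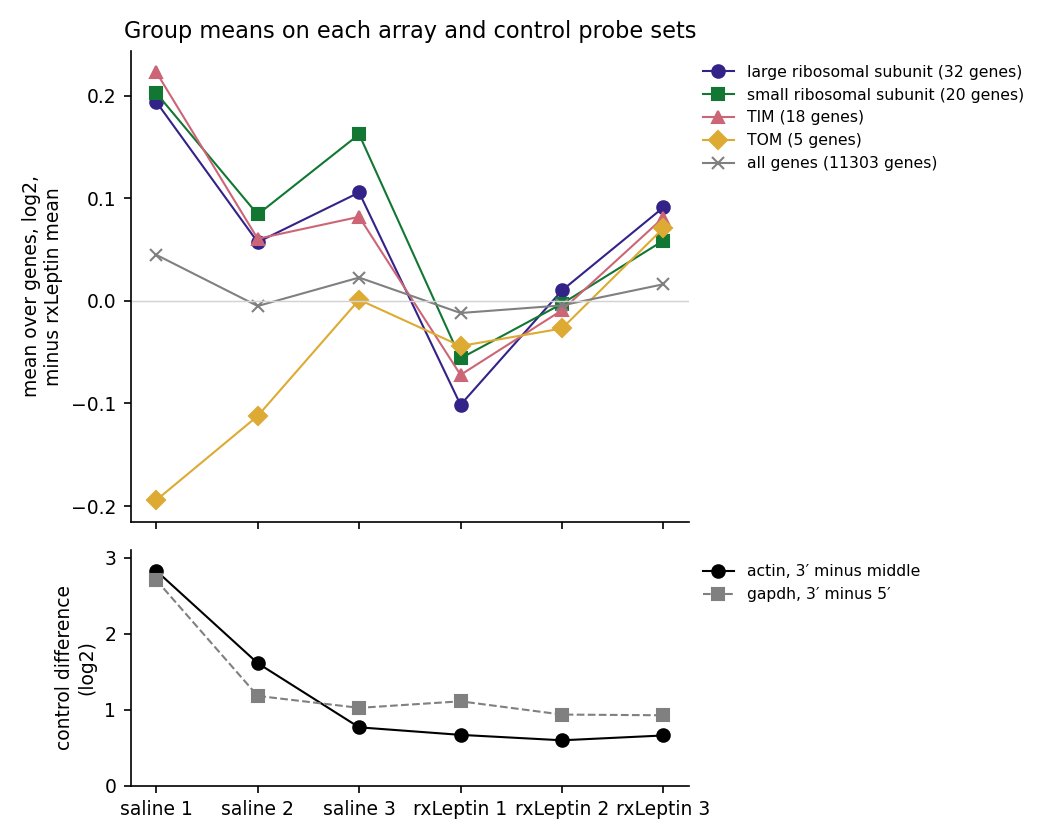
Upper panel, mean log2 signal over the genes of each group on each array, minus the mean of the 3 rxLeptin arrays, with all 11303 genes in grey. Lower panel, 3′ minus middle signal of *actin* and 3′ minus 5′ signal of *gapdh* on the same arrays, which are highest on saline array 1; lines only join the values of a group.

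Averaged over the genes of a group, the treatments separated fully in the *mrps* genes only among these 4 member groups. Relative to the rxLeptin mean, the 32 *mrpl* genes lay at 0.19, 0.057 and 0.11 on saline arrays 1 to 3 and at -0.10, 0.010 and 0.091 after rxLeptin, and saline array 2 was below rxLeptin array 3. The 20 *mrps* genes lay at 0.20, 0.084 and 0.16 after saline and at -0.056, -0.0028 and 0.059 after rxLeptin, without overlap. The *timm* genes lay at 0.22, 0.061 and 0.082 after saline and at -0.072, -0.0091 and 0.081 after rxLeptin, again with saline array 2 below rxLeptin array 3. The 5 *tomm* genes ran the other way on saline array 1, at -0.19, and were at -0.11 and 0.0011 on the other saline arrays. The mean over all genes moved between -0.012 and 0.045. Saline array 1, highest for both subunits and for *timm* and lowest for *tomm*, was also the array with the largest *actin* difference, 2.83.

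For 10 genes both the L and the S copy were measured, which allows copies of the same gene to be set side by side. The difference of group means had the same sign in 7 pairs and opposite signs in 3, and in no pair did both copies pass the test. *mrpl11.S* had signals of 8.42, 7.69 and 7.99 after saline and 7.65, 7.72 and 7.88 after rxLeptin, which overlap (log2 fold change -0.094, adjusted p = 0.628 from limma), where *mrpl11.L* fell clear of overlap. *timm8b.S* had signals of 7.68, 7.53 and 7.22 after saline and 7.78, 7.39 and 7.76 after rxLeptin (log2 fold change 0.041, adjusted p = 0.843 from limma), where *timm8b.L* fell. *timm10.L* was even, between 10.36 and 10.74, where *timm10.S* rose. The copies of *timm13* and those of *mrps30* lay close together, the latter with log2 fold changes of 0.31 in *mrps30.L* and 0.32 in *mrps30.S*, neither of which passed. *mrps30*, named after its values were seen, encodes a protein that mammalian ribosome structures place in the large subunit despite its name. The difference between copies was not tested.

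**Figure D4:**
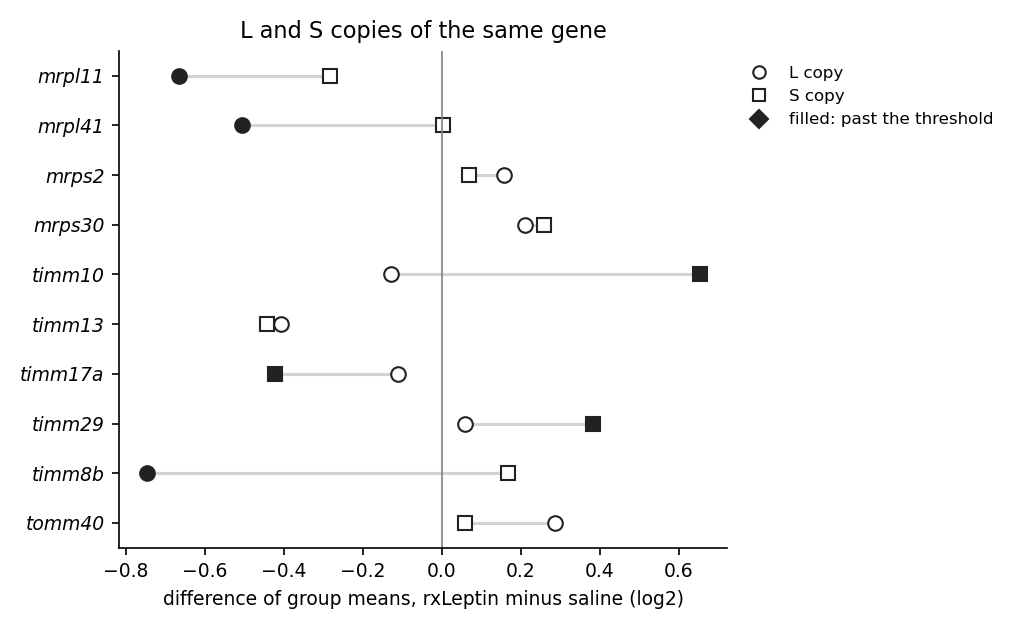
Difference of group means (rxLeptin minus saline, log2) of the L and S copies of 10 genes, with filled symbols for copies past the threshold. The copies of *timm8b* and *timm10* lie on opposite sides of 0, and those of *timm13* and *mrps30* lie next to each other.

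For 9 members the array carries further probe sets, 14 in all, and some of them did not move with the representative. *mrps9.L*, a protein of the small subunit, was even in its representative, at 11.09, 10.92 and 11.20 after saline and 11.06, 11.04 and 11.11 after rxLeptin. A second probe set of this gene went from 9.05, 8.29 and 7.70 after saline to 7.60, 7.40 and 7.37 after rxLeptin (log2 fold change -0.87, adjusted p = 0.00563 from limma), a larger change than any representative showed. *mrpl1.S* changed by 0.00073 in its representative (log2) and rose by 0.76 in a second probe set (adjusted p = 0.00576 from limma), whose signals were 8.27, 8.13 and 8.89 after saline and 8.84, 9.02 and 9.13 after rxLeptin. *mrps33.L* fell in its representative, whereas a second probe set had signals of 8.77, 9.38 and 9.75 after saline and 9.48, 9.64 and 9.71 after rxLeptin, with a log2 fold change of 0.26 that did not pass. The remaining probe set of this gene had -0.38 (adjusted p = 0.0533 from limma). The representative of *mrps33.L* and this remaining probe set have names that mark possible binding to more than 1 transcript. *mrps16.L* fell by 0.52 in its representative, and its second probe set had overlapping signals and a log2 fold change of -0.018 (adjusted p = 0.94 from limma). The other 2 probe sets of *timm17a.S* had lower group means after rxLeptin, as the representative did, and neither was called. Of all 89 member probe sets, 55 were tested, 13 fell and 4 rose. Over all tested probe sets of the array 9.91% fell and 14.6% rose, 24.5% together. *mrps9.L* and *mrpl1.S* were named after their values were seen.

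**Figure D5:**
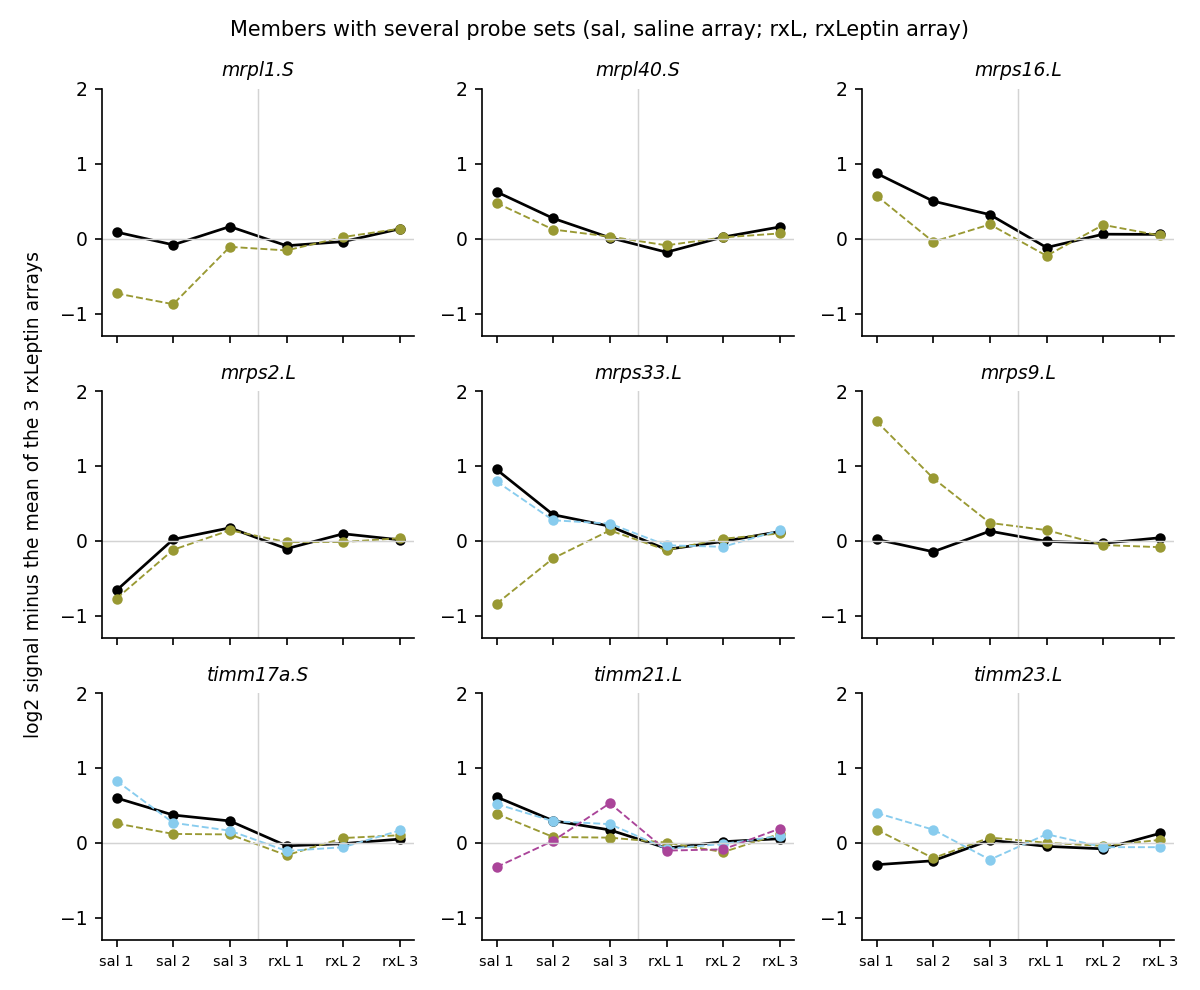
Signals of all probe sets of the 9 members that have several, as the log2 difference from the mean of the 3 rxLeptin arrays, with the representative in black and other probe sets dashed; lines join the values of a probe set. Probe sets of *mrps9.L*, *mrpl1.S* and *mrps33.L* part on saline arrays 1 and 2, and those of *timm17a.S* run alike.

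Other genes of the same machineries were taken from lists of partner genes. Of 27 measured genes of mitochondrial translation and transcription, 12 were tested, with 2 rises, 0 falls and 10 that did not pass (4 had an unadjusted p under 0.05 in limma). The rises are 16.7%, beside 12.2% rises and 10.4% falls over all tested genes. Of all tested probe sets, 43.3% had an unadjusted p under 0.05 in limma. The mean after rxLeptin was lower in 18 of the 27 genes (66.7%, beside 56.5% over all genes), with a median difference of -0.083. *lrpprc.L*, whose protein stabilizes mitochondrial mRNAs, had signals of 8.84, 9.37 and 9.72 after saline and 9.95, 9.85 and 10.08 after rxLeptin. It rose by 0.57 (adjusted p = 0.0154 from limma) without overlap, though saline array 3 lay closer to the rxLeptin arrays than to saline array 1, without which the change was 0.37. *ptcd2.L*, of the same family of RNA-binding proteins, rose by 0.39 with overlap, and without saline array 1 it stood at 0.21.

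Of 47 measured genes of import, sorting and folding outside the TIM and TOM names, 26 were tested, with 2 rises, 2 falls and 22 that did not pass. These are 7.69% in each direction, below the 12.2% rises and 10.4% falls over all tested genes. Both partner lists together had 15.8% of tested genes called, beside 22.6% over all. *apoo.L*, of the MICOS complex that shapes the inner membrane, had signals of 11.48, 11.24 and 11.11 after saline and 10.73, 10.84 and 10.80 after rxLeptin, a fall of 0.45 without overlap. *immp2l.L*, a subunit of the inner membrane peptidase, fell by 0.48, also without overlap. *immt.L*, the core subunit of MICOS, rose by 0.91 (adjusted p = 0.00815 from limma), with signals of 5.48, 6.35 and 7.15 after saline and 7.35, 7.27 and 6.92 after rxLeptin that overlap. Without saline array 1 it stood at 0.50. The other copy, *immt.S* (named after its value was seen), overlapped and did not pass (log2 fold change 0.19, adjusted p = 0.346 from limma). Its difference of group means was -0.013. *mtx2.L*, of the outer membrane machinery for barrel proteins, rose by 0.45 without overlap. With the *actin* covariate the 4 rises of partner genes shrank to between 0.031 and 0.19 and the 2 falls to -0.28 in *apoo.L* and -0.19 in *immp2l.L*. None of these partner genes passed without array weights (16 of the 38 tested had an unadjusted p under 0.05 in the weighted fit). Over all tested probe sets the share in the weighted fit was 43.3%.

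Groups of related genes showed lower signals too. Of 81 subunits of the respiratory chain and ATP synthase, all rxLeptin arrays lay below all saline arrays in 40 and above in 4, with a median difference of -0.23. Of 90 cytoplasmic ribosomal protein genes this held for 40 and 3, with a median difference of -0.092. In either direction these are 54.3% and 47.8% of the genes. Over all genes 16.6% lay below and 11.1% above, 27.7% together, with a median difference of -0.033. Only 27 and 10 of the genes in these groups varied enough to be tested, of which 5 fell and none rose (16 of the 27 had an unadjusted p under 0.05 in limma), and none fell and 1 rose (3 of the 10). The falls are 18.5% of the 27 and the rise 10% of the 10, beside 10.4% falls and 12.2% rises over all tested genes. An unadjusted p under 0.05 in limma was reached by 43.3% of all tested probe sets. Averaged over genes and relative to the rxLeptin mean, both groups separated the treatments fully, as the *mrps* genes did. The respiratory chain and ATP synthase lay at 0.30, 0.082 and 0.11 after saline and at -0.070, 0.0055 and 0.064 after rxLeptin. The cytoplasmic ribosomal proteins lay at 0.13, 0.050 and 0.069 and at -0.020, -0.010 and 0.030. These groups share all 6 arrays with the members, and no difference between groups was tested.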

How the data were processed

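Log2 expression values were measured on 6 arrays, 3 pools of brains per treatment. Deposited log2 values came from Robust Multichip Average in affy 1.52.0, run by the authors, whose methods then name genefilter 1.56.0 for a filter and limma 3.30.2 with array weights. The deposited table held 32635 probe sets without that filter.

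Here 96 control probe sets were removed, and the 16269 of 32539 with an interquartile range above the median of 0.173 entered a limma fit (3.58.1, R 4.3.3) that used gene-by-gene array weights and eBayes. The default REML weights stopped before they converged and are an alternative. In array order, saline weights were 0.375, 2.28 and 0.338 and rxLeptin weights 1.58, 3.09 and 0.708, so fitted changes differ from differences of plain means. Adjusted p-values (Benjamini-Hochberg, 0.05) cover all tested probe sets. The p-values measure the spread between pools, and the number of arrays limits the precision.

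Gene names come from the array's annotation, with 15495 probe sets of 1 gene name, 279 of several and 16765 unnamed here. A table of the Xenopus_laevis_v10.1 assembly held 74 of the 75 members under the same gene ID. The genes named were the called members (at most 12 in each direction), a fixed set of translocase and ribosome genes, copies called in opposite directions (there were none) and at most 4 called genes of each partner list, and any other is marked. The members, lists and tests were chosen with earlier results of these data known. The fit was tested on simulated data with known changes and independent noise of equal size on all arrays. That test does not cover arrays of unequal quality such as these. Alternatives covered weights, filters, scaling, moderation, probe sets, the *actin* control and each array left out.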

Additional observations from a re-analysis of the deposited data

How the results depend on the processing

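In the main setting 12 members fell and 3 rose, with 10 calls in the mitochondrial ribosome, 5 in TIM and TOM genes and 6 among partner genes. All of these counts were 0 without array weights, with a filter on the mean level in place of the spread, with the *actin* difference as a covariate, and without both the weights and saline array 1, an alternative chosen after seeing the data. With the filter on the mean, 4 rises and 22 falls of 71 tested members had an unadjusted p under 0.05 in limma, and without weights and saline array 1 these were 0 and 7. Over all tested probe sets the shares were 27.8% and 14.0%, and no probe set passed in either fit. With REML weights 7 members rose and 19 fell (18 in the ribosome, 8 in TIM and TOM, 16 partners), and without the filter 0 rose and 5 fell (3, 2 and 2). Over all tested probe sets 46.3% were called with REML weights and 4.29% without the filter, beside 24.5% in the main setting. With a trended and robust prior the TIM and TOM count was 8 and the partner count 10, beside 27.3% of all tested probe sets called. With 1 array left out the members called ranged from 0 to 3 rises and from 0 to 14 falls, the ribosome count from 0 to 11, the TIM and TOM count from 0 to 5 and the partner count from 0 to 7. Over all tested probe sets the share called in these fits ranged from 0% to 23.3%. The lowest counts came without saline array 1 or 2, where no probe set of the array passed. Without rxLeptin array 1 there were 3 rises and 3 falls of 46 tested members, beside 18.8% of all tested probe sets called. Without rxLeptin array 2 there were 1 rise and 3 falls of 46, beside 9.87%. Over the tested members the median log2 fold change stayed below 0 in every setting, between -0.27 and -0.077. *mrps33.L* turned to 0.26 with probe sets that can bind several transcripts removed. *mrps18b.S* had only such a probe set and dropped out there, and 10 of 43 tested members fell and 3 rose. With the *actin* covariate *mrpl20.L*, *timm10.S* and *timm29.S* turned to -0.0021, -0.056 and -0.011. The cause of these changes was not tested. No paired analysis was possible because the labels give the arrays no replicate numbers shared between treatments.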
